A study of Mus musculus with 6 samples.

Results

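Oxidative phosphorylation genes were followed on 6 expression arrays of LT-HSC from mice, the long-term blood stem cells of the marrow that can rebuild all blood lineages. The genes are nuclear genes for subunits of complexes I to V of the mitochondrial inner membrane, and they were picked by symbol: Nduf genes for complex I, Sdh for II, Uqcr for III, Cox for IV and Atp5 for V. The rule found 74 genes among the 22180 with a probe set of their own, 32 of complex I, 4 of II, 7 of III, 14 of IV and 17 of V. Of the 74, 72 passed the filter on dim genes and were tested among 16635 genes; Cox7b2 and Cox8c did not pass. Another 5 subunit genes (Ndufb2, Ndufb4, Ndufs6, Cox6c and Uqcr10) share their probe sets with a second gene and were not analysed here. All 6 arrays share the tissue (bone marrow), the strain (C57/BL6) and a sort 4 months after a bone marrow transplant. The control group comprised 3 arrays, each of RNA from a pool of control animals. The NPMc+ group comprised 3 arrays of pools of animals that express NPMc+, a mutant nucleophosmin that lies in the cytoplasm and occurs in acute myeloid leukaemia. The labels used here do not say which promoter drives the mutant, how old the animals were, how many made a pool, or how far host cells had been replaced.

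Complex I oxidises NADH and complex II succinate, and both pass electrons to ubiquinone. Complex III hands them to cytochrome c and complex IV to oxygen, and complex V, the ATP synthase, uses the proton gradient that complexes I, III and IV build. Dormant LT-HSC are known for low mitochondrial respiration and a reliance on glycolysis, and respiration rises when they enter the cycle and differentiate. The series title places the study in the context of stem cell dormancy enforced by mutant nucleophosmin. The comparison asked whether the genes of the respiratory chain differed between NPMc+ and control LT-HSC.

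Nuclear genes of the respiratory chain are known targets of the transcription factors NRF1, GABPA and YY1, so their promoters were searched for the letters these factors prefer. RefSeq windows of 300 bases (build GRCm38.p6, from 250 bases before to 50 after the annotated start) were at hand for 63 of the 74 genes, matched by gene identifier. The NRF1 motif GCGCANGCG, searched on both strands, was in the windows of 18 of the 63 members (28.6%), against 12.0% of the 12845 tested genes with a window and 7.03% of all 27025 genes with one. The GABPA motif CCGGAAG was in 17 of 63 (27.0%, against 15.9% and 9.93%). The YY1 motif AAGATGGCG was in 6 of 63 (9.52%, against 2.76% and 1.64%). Of the 63 members 34 held at least 1 of the 3 motifs (54.0%, against 26.8% of tested genes). The windows' median GC content was 58.3% in members and 59.0% in tested genes. A match describes these letters only and is not evidence of binding.

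A window is printed for 1 named member of each complex that holds a match, and for Atp5d, the member with the largest mean difference, whose windows hold none. All read 5′ to 3′ on the gene's strand, and capitals mark the matches. The window of Ndufs4 lies at chr13:114388045-114388344 on the minus strand and holds a YY1 match that begins 35 bases after the start. That of Sdhd (chr9:50603800-50604099, minus strand) holds an NRF1 match and then a GABPA match, 79 and 46 bases before the start. Uqcrh (chr4:116075021-116075320, minus) has a GABPA match. Cox6a1 (chr5:115348909-115349208, minus) has 3 NRF1 matches, a pair of which overlap on opposite strands, and a GABPA match. Atp5l (chr9:44920693-44920992, minus) has an NRF1 match and 2 GABPA matches, and Atp5d is shown by the first of its windows (chr10:80142025-80142324, plus).
Ndufs4: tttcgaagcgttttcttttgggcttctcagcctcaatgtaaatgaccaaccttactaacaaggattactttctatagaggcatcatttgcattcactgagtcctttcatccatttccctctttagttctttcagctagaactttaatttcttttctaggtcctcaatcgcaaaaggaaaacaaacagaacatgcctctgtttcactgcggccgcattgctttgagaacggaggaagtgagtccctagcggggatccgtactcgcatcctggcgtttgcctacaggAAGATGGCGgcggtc
Sdhd: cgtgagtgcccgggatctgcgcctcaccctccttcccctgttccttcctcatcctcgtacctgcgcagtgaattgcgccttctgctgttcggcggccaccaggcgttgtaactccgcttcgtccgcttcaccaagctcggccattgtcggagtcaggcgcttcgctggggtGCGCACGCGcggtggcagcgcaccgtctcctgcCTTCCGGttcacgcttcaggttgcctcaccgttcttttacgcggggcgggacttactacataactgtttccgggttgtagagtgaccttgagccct
Uqcrh: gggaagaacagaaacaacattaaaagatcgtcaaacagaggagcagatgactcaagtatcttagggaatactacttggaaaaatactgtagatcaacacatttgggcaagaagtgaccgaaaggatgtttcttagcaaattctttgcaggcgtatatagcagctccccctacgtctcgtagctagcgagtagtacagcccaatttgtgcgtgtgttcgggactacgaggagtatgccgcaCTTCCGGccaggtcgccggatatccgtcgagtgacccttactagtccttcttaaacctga
Cox6a1: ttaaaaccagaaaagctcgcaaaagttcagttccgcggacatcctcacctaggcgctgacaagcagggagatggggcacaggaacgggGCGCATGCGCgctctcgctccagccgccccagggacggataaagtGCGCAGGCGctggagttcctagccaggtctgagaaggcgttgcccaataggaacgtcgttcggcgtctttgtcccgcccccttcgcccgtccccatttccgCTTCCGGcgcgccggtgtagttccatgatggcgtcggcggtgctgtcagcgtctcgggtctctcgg
Atp5l: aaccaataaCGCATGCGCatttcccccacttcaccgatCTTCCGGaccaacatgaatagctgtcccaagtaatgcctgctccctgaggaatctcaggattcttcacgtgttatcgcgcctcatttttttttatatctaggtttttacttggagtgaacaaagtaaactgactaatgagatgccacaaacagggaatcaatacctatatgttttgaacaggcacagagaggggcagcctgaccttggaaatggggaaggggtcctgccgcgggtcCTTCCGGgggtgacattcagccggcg
Atp5d: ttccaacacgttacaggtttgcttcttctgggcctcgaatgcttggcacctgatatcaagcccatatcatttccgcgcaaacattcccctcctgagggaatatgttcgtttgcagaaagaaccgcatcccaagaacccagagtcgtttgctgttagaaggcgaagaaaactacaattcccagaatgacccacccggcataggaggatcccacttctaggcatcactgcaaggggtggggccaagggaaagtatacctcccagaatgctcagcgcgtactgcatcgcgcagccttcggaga

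Members with any match had median differences of -0.17, 0.24 and -0.23 log2 units in pairs 1, 2 and 3 (34 tested), and those with a window but no match -0.17, 0.22 and -0.30 (28 tested). These are descriptions, with no test.

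The deposited values are log2 signals, with array medians of 3.90 to 3.99. Differences are NPMc+ minus control. Averaging the control and NPMc+ arrays of a number gave the same value for numbers 1, 2 and 3, within 0.001 log2 units, in 100% of 41345 probe sets, so an effect of the number had been taken out before deposit. Same-numbered arrays were therefore treated as pairs, and each gene has 3 independent values, its differences within pairs 1, 2 and 3. The step that took the effect out is not given in the sources, and every difference and SE below assumes that it left the differences within pairs as measured. For the same reason the arrays of a group mirror those of the other, and groups that do not overlap are those that differ in 1 direction in 3 of 3 pairs. The pair with the largest difference in a gene also always holds both its highest and its lowest value. Levels of unlike probe sets cannot be set against each other. The SE given after ± is that of limma, which draws a gene's own spread over the 3 pairs towards a value shared by all genes.

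No marker of the labelled cells or of other lineages passed an adjusted p under 0.05 in limma; at an unadjusted p under 0.05, 989 of 16635 genes were higher in NPMc+ and 503 lower. Counts below are of tested genes and directions are of means. Ranges of list means mirror between the groups, so their width shows only how the pair differences vary, not the spread between pools. Of 15 tested LT-HSC genes 13 had higher means in NPMc+ and 7 reached an unadjusted p under 0.05 in limma. Procr differed by 0.08 and Fgd5 by -0.20 on average. All 12 neutrophil genes were lower, 9 at that p, but in pair 3 5 of 12 were higher and 7 lower (pair medians -1.74, -1.44 and -0.04); the list's mean signal was 9.59 to 10.46 on control arrays and 8.69 to 9.56 on NPMc+ arrays. All 8 erythroid genes (6.13 to 6.56 against 5.38 to 5.81) and all 9 B cell genes (5.97 to 6.08 against 4.66 to 4.77) were lower. Of 8 T and NK cell genes 5 were lower (5.58 to 5.89 against 4.97 to 5.28), and of 8 megakaryocyte genes 7 were higher (5.25 to 5.36 against 6.14 to 6.25). Pools also differed in sex-linked transcripts, with Xist at -5.44, -5.39 and 0.48 log2 units in pairs 1, 2 and 3. The other tested ones set pair 1 apart from pair 2. Uty differed by 4.7, 0.9 and 0.3, Kdm5d by 3.5, 1.3 and -0.7, and Eif2s3y by 5.5, 0.4 and -0.8. The part of these differences in the results below was not tested. In bulk RNA, fewer cells of a type and less RNA per cell cannot be told apart.

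No oxidative phosphorylation gene was called different between NPMc+ and control with these 3 pairs. None of the 72 passed an adjusted p under 0.05 in the paired limma fit (adjusted p = 0.608 to 1.0), as was the case for 0% of all genes tested. At an unadjusted p under 0.05, limma called 0 of 72 members, where 8.97% of all genes tested were called. Of the 72 members 47 were lower on average (65.3%, against 45.1% of all genes tested) and 25 higher. Their median difference was -0.07 log2 units, against 0.03 for all genes tested. It was -0.19 without pair 2 and 0.04 without pair 3, so its sign rests on which pairs are used. The medians were -0.08 for complex I, -0.02 for II, -0.05 for III, -0.08 for IV and -0.05 for V. Each turned sign when 1 pair was left out: without pair 3 that of complex I was 0.04, IV 0.04 and V 0.07, and without pair 1 that of II was 0.12 and III 0.07, while without pair 2 they were -0.25, -0.07, -0.22, -0.19 and -0.07 for complexes I to V.

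The errors of the members were close to those of other genes, in part because limma draws each gene's SE towards a shared value. The median SD over the pairs was 0.35 log2 units in members and 0.33 in all genes tested. Ndufb8, with an SD of 0.06 over the pairs, had a limma SE of 0.17, so its own spread alone did not set that SE. The median SE was 0.21 log2 units in members and 0.20 in all genes tested, and the 95% intervals of members reached a median of 0.49 to either side. In 68 of 72 members (94.4%) the interval lay inside a 2-fold change in either direction, against 83.7% of all genes tested. The 4 whose interval reached beyond it were Ndufs8, Cox6b2, Cox6a2 and Atp5d. These intervals are not adjusted for the number of genes.

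**Figure D1:**
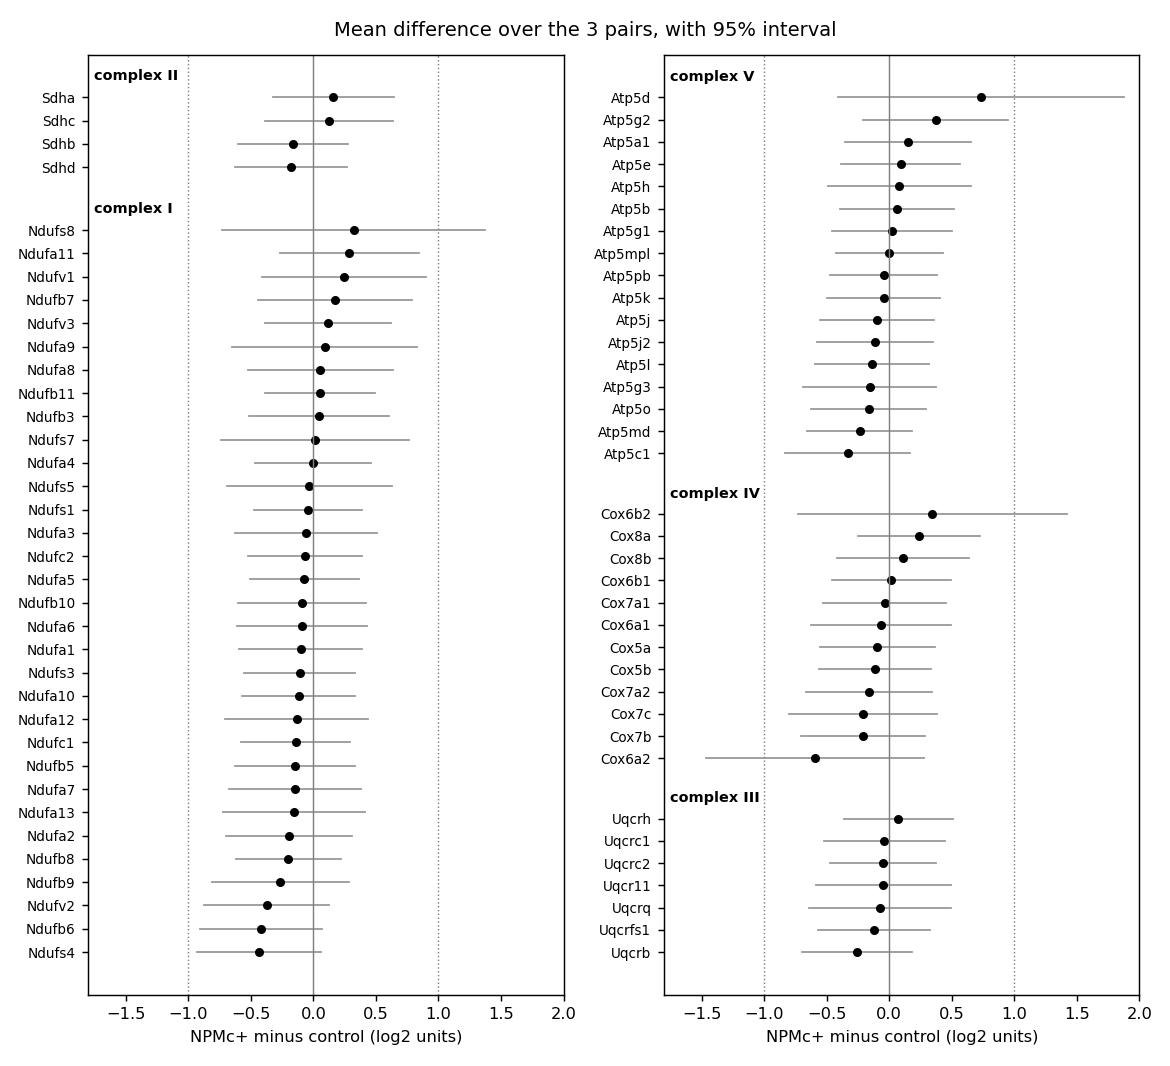
Mean NPMc+ minus control difference of the 72 tested members in log2 units (points) with the 95% interval of the paired limma fit (lines), grouped by complex; dotted lines mark a 2-fold change. All 72 intervals include 0, and 68 stay between the dotted lines.

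Within single pairs most members differed in 1 direction, which was not the same in each pair. In pair 1 54 of 72 were lower in NPMc+ (median -0.18 log2 units), in pair 2 54 of 72 were higher (0.23), and in pair 3 57 of 72 were lower (-0.26). Over all genes tested the medians were 0.00, 0.05 and 0.03, and over the 3327 brightest genes, which holds 55 of the 72 members, 0.03, 0.11 and 0.01. In pairs 1, 2 and 3, 50.4%, 54.5% and 53.0% of all genes tested were higher in NPMc+ (54.1%, 60.3% and 51.9% of the 3327 brightest). The difference was highest in pair 2 for 55 of 72 members (76.4%), against 37.9% of all genes tested and 41.8% of the 3327 brightest. The full sequence of lower, higher, lower was seen in 33 members (45.8%), against 12.2% of all genes tested and 14.6% of the 3327 brightest. It was not particular to the members. The share was 38.2% in genes of the mitochondrial ribosome, 37.9% in cell cycle genes and 24.6% in genes of the cytosolic ribosome. That pair 2 stands apart was noticed in the data, and with 3 pairs no test of it across samples was available.

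**Figure D2:**
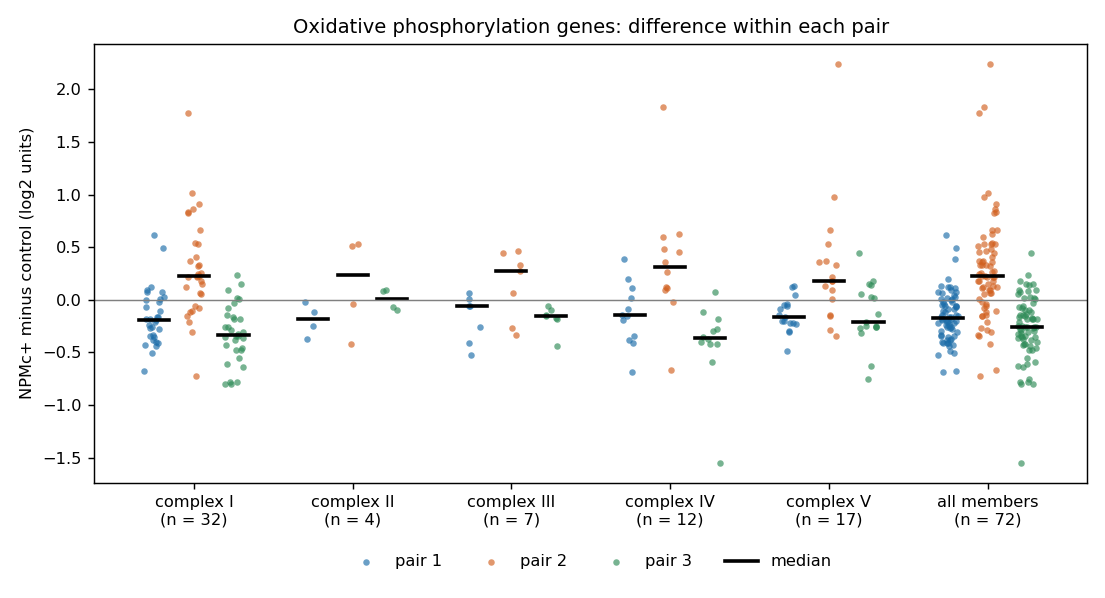
Each point is the NPMc+ minus control difference (log2 units) of 1 tested member in pair 1, 2 or 3, by complex and for all 72; black bars are medians. The bars of complexes I, III, IV and V lie below 0 in pairs 1 and 3 and above it in pair 2.

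Groups that did not overlap were few and mostly lower. Of 72 members 9 were lower in 3 of 3 pairs (12.5%), against 12.8% of all genes tested, a share near the background. They were Ndufb6, Ndufb8, Ndufs4 and Ndufv2 of complex I, Sdhb and Sdhd of complex II, Uqcrb of complex III, and Atp5c1 and Atp5md of complex V. Higher in 3 of 3 pairs were 2 members (2.78%), Cox8a and Atp5g2, where 17.4% of all genes tested were.

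**Figure D3:**
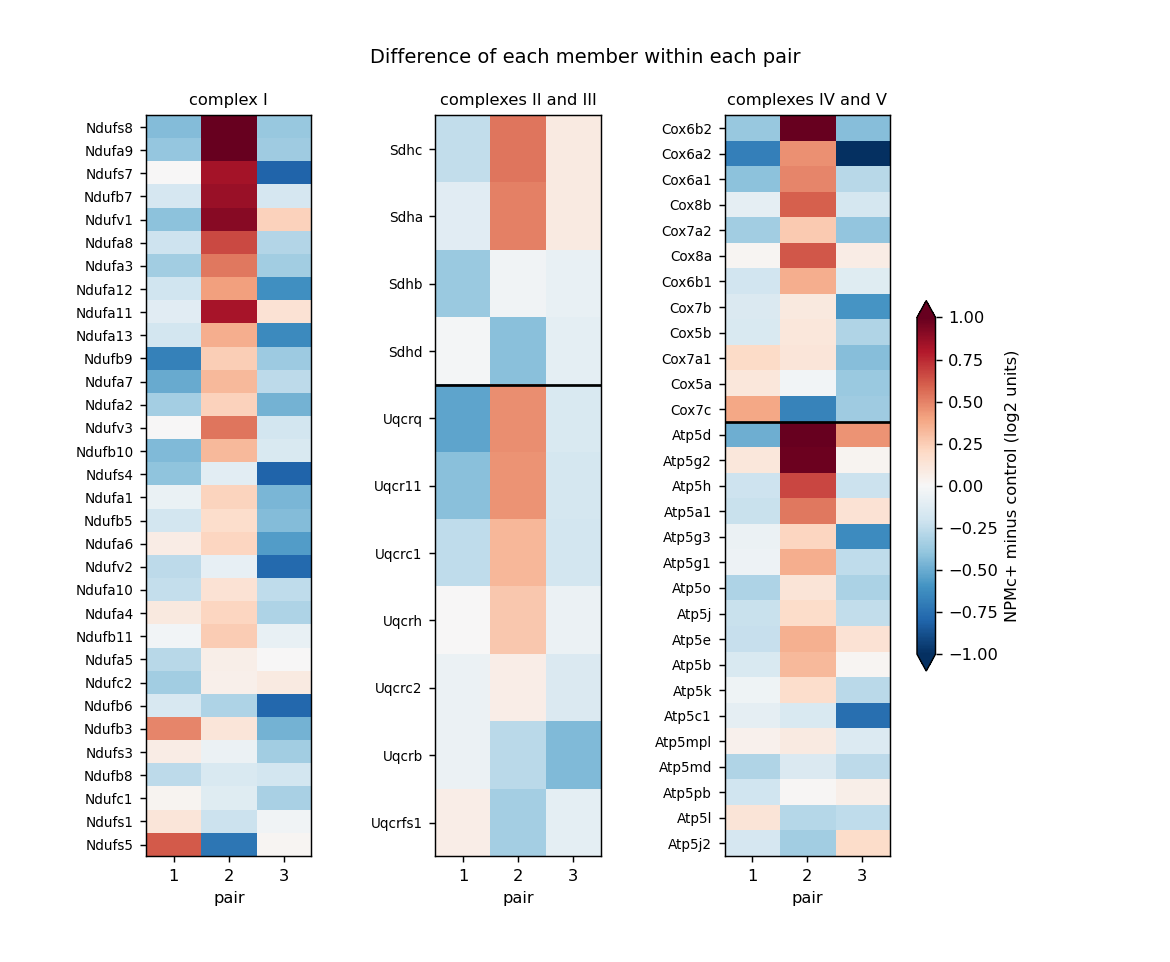
Colour gives the NPMc+ minus control difference (log2 units, limited to -1 to 1) of each tested member (rows) in each pair (columns), with black lines between complexes; members are ordered by how far pair 2 exceeds the mean of pairs 1 and 3. Red prevails in the column of pair 2 and blue in those of pairs 1 and 3.

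Complex I has a core of catalytic subunits, shared with bacteria, and many accessory subunits around it. Of its 32 members 23 were lower in pair 1, 24 higher in pair 2 and 27 lower in pair 3, with medians of -0.19, 0.23 and -0.33 log2 units. The 26 accessory subunits had medians of -0.19, 0.23 and -0.32. The 6 core subunits had -0.13, 0.38 and -0.36, with wider differences between members: in pair 2 Ndufs8, Ndufv1 and Ndufs7 were 1.78, 0.91 and 0.83 higher, while Ndufs1, Ndufv2 and Ndufs3 were 0.21, 0.08 and 0.06 lower.

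Ndufs8, a core subunit that carries iron-sulfur clusters on the path to ubiquinone, had 7.79, 6.69 and 7.77 log2 units on control arrays 1, 2 and 3 and 7.36, 8.46 and 7.39 on the NPMc+ arrays. Its largest difference was in pair 2, while pairs 1 and 3 were alike and lower in NPMc+. The mean difference, the highest in complex I, was 0.32 ± 0.44 (SE, n = 3 pairs; limma adjusted p = 0.882). Without pair 2 it turned to -0.41.

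Ndufs4, an accessory subunit of the NADH-oxidising arm whose loss in mice gives a mitochondrial encephalopathy, had 9.69, 9.54 and 9.89 in control and 9.29, 9.44 and 9.09 in NPMc+. The groups did not overlap, with the narrowest gap in pair 2. It had the lowest mean difference of complex I and the smallest p of all members, at -0.44 ± 0.21 log2 units (SE, n = 3 pairs; 95% interval -0.93 to 0.06; limma adjusted p = 0.608). Without pair 3 it was -0.25. Ndufb6, an accessory subunit of the membrane arm, differed by -0.16, -0.31 and -0.79 in the 3 pairs. Ndufv2, a core iron-sulfur subunit of the NADH-oxidising arm, differed by -0.26, -0.08 and -0.78, and Ndufb8, of the membrane arm, by -0.26, -0.15 and -0.18. Ndufb8 had the most even differences of the 32, with an SD of 0.06 over the pairs.

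Ndufa4, named for complex I but since found in complex IV, had 10.83, 10.77 and 11.03 in control and 10.92, 10.98 and 10.72 in NPMc+. The groups overlapped fully and the mean difference was 0.00 ± 0.19 log2 units (SE, n = 3 pairs; limma adjusted p = 1.0). Counted with complex IV, it changed that complex's median from -0.08 to -0.07.

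Several accessory subunits of complex I were lower in pairs 1 and 3 by near equal amounts and clearly higher in pair 2. Ndufa9 differed by -0.39, 1.01 and -0.35 and Ndufb7 by -0.17, 0.86 and -0.17. Ndufa8 differed by -0.21, 0.66 and -0.29 and Ndufa3 by -0.35, 0.53 and -0.35. Ndufs5, an accessory subunit with a signal of 3.83, went the other way, at 0.61, -0.73 and 0.02. Ndufa11, a membrane arm subunit, and Ndufv3, of the NADH-oxidising arm, were higher in pair 2 by 0.82 and 0.54 but not lower in both other pairs (-0.11 and 0.15, 0.00 and -0.18).

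Of the other accessory subunits of complex I, 10 were lower, higher and lower in turn. Ndufb9, with a fold known from iron-sulfur assembly proteins, had the lowest value in pair 1 (-0.68, 0.25 and -0.37). In pair 3 Ndufa13, also studied as a cell death gene (-0.18, 0.37 and -0.64), and Ndufa12 (-0.20, 0.41 and -0.61) were lowest. Ndufa7 (-0.51, 0.32 and -0.26), Ndufb10 (-0.44, 0.33 and -0.15) and Ndufa2 (-0.34, 0.23 and -0.48) were alike, while Ndufa10 (-0.24, 0.15 and -0.26), Ndufa1 (-0.07, 0.22 and -0.46), Ndufb5 (-0.19, 0.18 and -0.43) and Ndufb11 (-0.03, 0.26 and -0.08) had smaller differences. The exceptions were Ndufb3 (0.49, 0.12 and -0.48), Ndufa6 (0.07, 0.21 and -0.56), Ndufc1 (0.02, -0.12 and -0.32), Ndufc2 (-0.35, 0.05 and 0.09) and Ndufa5 (-0.28, 0.06 and 0.00).

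Complex II, succinate dehydrogenase, also works in the TCA cycle and has no subunit encoded by mitochondrial DNA. Its 4 members were all lower in pair 1 (median -0.18 log2 units), and in pairs 2 and 3 split evenly, 2 higher and 2 lower. The split ran through the enzyme. Sdha, the flavoprotein that oxidises succinate, and Sdhc, a membrane anchor, were higher in pair 2 by 0.51 and 0.53, whereas Sdhd, the other anchor, was 0.42 lower and Sdhb, the iron-sulfur subunit, 0.04 lower.

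Sdha had 8.88, 8.57 and 8.78 log2 units in control and 8.77, 9.08 and 8.87 in NPMc+, with overlap between the groups. Its difference was 0.16 ± 0.20 (SE, n = 3 pairs; limma adjusted p = 0.868). Sdhd had 8.07, 8.27 and 8.11 in control and 8.05, 7.85 and 8.01 in NPMc+. All NPMc+ arrays lay below all control arrays, by a margin of 0.02 in pair 1, and the mean difference was -0.18 ± 0.19 (SE, n = 3 pairs; limma adjusted p = 0.838).

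Complex III, the cytochrome bc1 complex, had 7 members. In pair 1 5 of 7 were lower, in pair 2 5 of 7 higher and in pair 3 7 of 7 lower, with medians of -0.06, 0.27 and -0.15 log2 units. The core proteins Uqcrc1 and Uqcrc2 followed the pattern, at -0.26, 0.33 and -0.19 and at -0.06, 0.07 and -0.15. Uqcrfs1, the Rieske iron-sulfur protein that takes electrons from ubiquinol, did not, at 0.07, -0.34 and -0.10. The small subunits Uqcrq (-0.53, 0.46 and -0.15) and Uqcr11 (-0.42, 0.45 and -0.17) had the largest differences of the complex.

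Uqcrb, a small subunit next to the ubiquinone site, had 10.30, 10.40 and 10.49 log2 units in control and 10.24, 10.13 and 10.05 in NPMc+. No array of NPMc+ reached the lowest control array, and the difference was -0.26 ± 0.18 (SE, n = 3 pairs, limma adjusted p = 0.749). Its 95% interval, -0.70 to 0.18, included 0. Uqcrh, the hinge protein beside cytochrome c1, had 8.71, 8.57 and 8.74 in control and 8.71, 8.84 and 8.68 in NPMc+, a difference of 0.07 ± 0.18 (SE, n = 3 pairs; limma adjusted p = 0.941), the only positive mean in the complex.

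Complex IV, cytochrome c oxidase, has nuclear subunits that exist in ubiquitous and tissue forms. Of the 12 tested members 8 were lower in pair 1, 10 higher in pair 2 and 11 lower in pair 3, with medians of -0.15, 0.31 and -0.36 log2 units. Among ubiquitous subunits, Cox6a1 had 11.49, 11.04 and 11.42 in control and 11.08, 11.53 and 11.15 in NPMc+. NPMc+ was lower in pairs 1 and 3 and higher in pair 2 by amounts of similar size, and the mean difference was -0.07 ± 0.23 (SE, n = 3 pairs; limma adjusted p = 0.958). Cox7a2 (-0.35, 0.26 and -0.40) and Cox6b1 (-0.19, 0.36 and -0.12) had the same order of signs, as had Cox5b (-0.16, 0.11 and -0.30) and Cox7b (-0.14, 0.10 and -0.59). Cox5a, which with Cox5b packs against the catalytic core, differed by 0.11, -0.03 and -0.37. Cox8a, the ubiquitous form of subunit 8, was higher in all 3 pairs, by 0.02, 0.62 and 0.08, and Cox7c went against the pattern at 0.39, -0.67 and -0.35.

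The tissue forms are described apart. Cox7b2 and Cox8c, known from testis, had mean signals of 2.30 and 2.73 log2 units, below the filter, and Cox8b and Cox7a1, forms of heart and skeletal muscle, had 3.40 and 4.13. Cox6a2, another muscle form, and Cox6b2, another testis form, had the largest single-pair differences of the complex. Whether their probe sets also read other transcripts was not tested.

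Cox6b2 had 9.22, 8.11 and 9.24 in control and 8.84, 9.95 and 8.82 in NPMc+. Its largest difference was in pair 2, and the mean difference was 0.34 ± 0.45 log2 units (SE, n = 3 pairs, limma adjusted p = 0.875), or -0.40 without pair 2. Cox6a2 had 6.61, 6.04 and 7.04 in control and 5.92, 6.49 and 5.49 in NPMc+. Pair 3 had the widest gap and pair 2 ran in the opposite direction, for a mean of -0.59 ± 0.36 (SE, n = 3 pairs; limma adjusted p = 0.698). Without pair 2 it was -1.12 (limma adjusted p = 0.523) and without pair 3 -0.12. In RefSeq the span of Cox6a2 overlaps that of Itgad, an integrin gene whose own probe set differed by 0.30, -0.02 and -0.02, and whether that gene's transcripts bear on the signal was not tested.

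**Figure D4:**
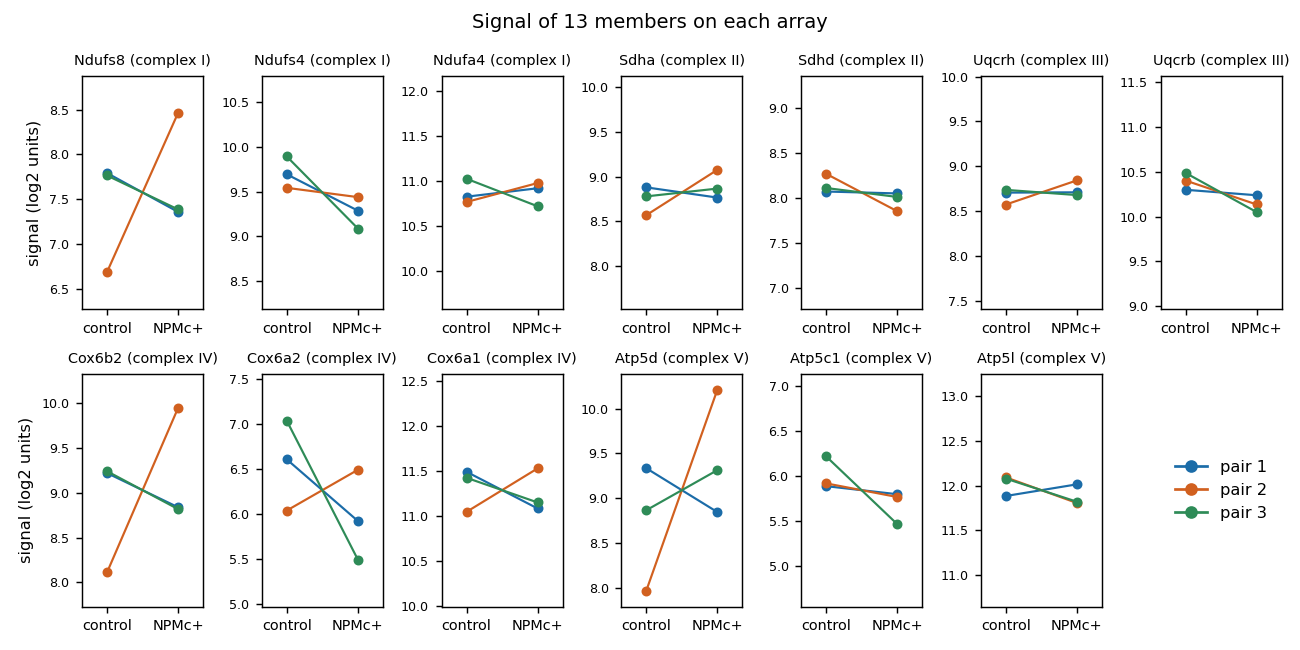
Signal (log2 units) of 13 members on each control and NPMc+ array, with lines joining the arrays of a pair; each axis spans the same number of log2 units around the gene's mean. In Ndufs8, Cox6b2, Atp5d, Sdha, Uqcrh and Cox6a1 the line of pair 2 is the steepest and rises. In Sdhd and Atp5l the line of pair 2 is the steepest and falls. Because the pairs share a mean, the steepest line always joins the lowest and the highest of the 6 values.

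Complex V, the ATP synthase, joins a catalytic F1 head to a ring of c subunits in the membrane. Of its 17 members 14 were lower in pair 1 and 13 higher in pair 2, with medians of -0.17 and 0.18 log2 units; pair 3 was less uniform than in complexes I and IV, with 10 lower and 7 higher (median -0.22). The F1 subunits differed here from the rest: 4 of 5 (Atp5a1, Atp5b, Atp5d and Atp5e) were higher in pair 3 as in pair 2, with an F1 median of 0.14 in pair 3, against -0.23 for the 4 subunits of the peripheral stalk. The contrast depends on the probe set used. In pair 3 the other probe sets of Atp5d and Atp5e were at -0.03 and -0.09. That of Atp5h, a stalk subunit, was at 0.74, with a mean signal of 4.43. Atp5a1 and Atp5b had 1 probe set each, and Atp5b differed by only 0.02 in pair 3. This contrast was seen in the values and was not tested.

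Atp5d, the delta subunit in the central stalk of F1, had 9.33, 7.97 and 8.87 in control and 8.85, 10.21 and 9.31 in NPMc+. Pair 2 alone differed by 2.24 log2 units, more than any other member in any pair. The mean difference was 0.73 ± 0.48 (SE, n = 3 pairs; limma adjusted p = 0.719); it was -0.02 without pair 2 and 1.34 without pair 1 (limma adjusted p = 0.588). Its other probe set, with a mean signal of 5.17, differed by -0.13, 1.24 and -0.03. The span of Atp5d overlaps in RefSeq that of Cbarp, whose probe set differed by 0.22, 0.72 and 0.42.

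Atp5c1, the gamma subunit that turns inside F1, had 5.88, 5.92 and 6.22 in control and 5.79, 5.76 and 5.46 in NPMc+. It was the F1 subunit that was lower in each pair, without overlap, and its difference was -0.33 ± 0.21 log2 units (SE, n = 3 pairs; limma adjusted p = 0.709). Atp5l, subunit g of the membrane part, had 11.88, 12.09 and 12.08 in control and 12.01, 11.80 and 11.82 in NPMc+, a difference of -0.14 ± 0.19 (SE, n = 3 pairs; limma adjusted p = 0.882) with pair 1 opposed to the others.

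The c ring is encoded by Atp5g1, Atp5g2 and Atp5g3, which give the same mature protein. Atp5g2 had 10.57, 10.14 and 10.62 in control and 10.69, 11.12 and 10.64 in NPMc+ and was higher in each pair, by 0.12, 0.98 and 0.02. Its mean difference was 0.37 ± 0.24 log2 units (SE, n = 3 pairs; limma adjusted p = 0.719), and its other probe set differed by 0.03, 1.23 and -0.02. Atp5g3 differed by -0.06, 0.22 and -0.63 and Atp5g1 by -0.05, 0.37 and -0.25. Of the small membrane subunits, Atp5md differed by -0.30, -0.14 and -0.26 in the 3 pairs, with an SD of 0.08. Atp5k differed by -0.04, 0.18 and -0.27 and Atp5mpl by 0.04, 0.09 and -0.13. Atp5j2, at a signal of 4.32, had -0.17, -0.35 and 0.18.

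The peripheral stalk holds F1 still against the turning ring. Atp5h had the largest value of the stalk in pair 2 (-0.21, 0.67 and -0.22). Atp5j (-0.22, 0.18 and -0.25) and Atp5o (-0.31, 0.13 and -0.32), which links the stalk to the head, had the same order of signs. Atp5pb, the b subunit, differed by -0.20, 0.01 and 0.06.

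For 9 members there was a further probe set. Both probe sets agreed in sign in 9 of 9 members in pair 1, in 9 of 9 in pair 2 and in 5 of 9 in pair 3, and in 7 of 9 both had their highest difference in pair 2. Of the 74 members 13 overlap another protein-coding gene in RefSeq.

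Other genes of mitochondria followed the members in part. Of 68 genes of the mitochondrial ribosome, which makes the subunits encoded by mitochondrial DNA, 49 were highest in pair 2 (72.1%), with medians of -0.16, 0.27 and -0.15 log2 units; 1 of 68 was higher at an unadjusted p under 0.05 in limma, Mrps25, and 0 lower. Of 16 TCA cycle genes 11 were highest in pair 2 (-0.10, 0.23 and -0.02), and 0 of 16 reached that p. Of 43 assembly factors of the respiratory chain 21 were highest in pair 2 (48.8%; -0.11, 0.34 and 0.02), and 2 were higher and 1 lower at that p, which 8.97% of all genes tested reached. Of 22 genes of mitochondrial fission, fusion and import 13 were highest in pair 2 (59.1%), the medians were -0.19, 0.17 and -0.10, and Mff, a receptor for the fission machinery, was the 1 gene lower at that p (-0.43 ± 0.17 log2 units, SE, n = 3 pairs; limma adjusted p = 0.546).

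Regulators of mitochondrial biogenesis did not share the pattern. The 16 tested of a list that includes Nrf1, Gabpa, Tfam and Yy1 had medians of -0.09, -0.04 and 0.10 log2 units, with 6 of 16 highest in pair 2 and 0 at an unadjusted p under 0.05 in limma. Of 7 further genes of the chain 4 were highest in pair 2 (57.1%), with medians of -0.10, 0.35 and -0.16. Cytochrome c1 (Cyc1) differed by -0.54, 0.50 and -0.95 and Cox4i1, the ubiquitous form of subunit 4, by -0.38, 0.39 and -0.16. Ndufab1 differed by 0.35, 0.45 and 0.05, Cox4i2 by -0.10, -0.30 and 0.38, and Cox7a2l by -0.04, 0.15 and 0.19. Cycs, cytochrome c, differed by -0.07, -0.16 and -0.64. None of the 7 had an unadjusted p under 0.05 in limma.

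Lists outside mitochondria were compared with the 37.9% of all genes tested, and 41.8% of the 3327 brightest, that were highest in pair 2. Of 61 genes of the cytosolic ribosome 35 were (57.4%, medians -0.01, 0.21 and -0.05 log2 units), and of 29 cell cycle genes 19 were (65.5%, medians -0.12, 0.24 and -0.15), although Mki67 differed by -0.20, -0.25 and -0.33. Of 8 erythroid genes 6 were highest in pair 2, but their medians were below 0 in every pair (-1.04, -0.37 and -0.88), whereas the 12 neutrophil genes were highest in pair 3. Whether cells in cycle or erythroid cells have a part in the members' differences was not tested.

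**Figure D5:**
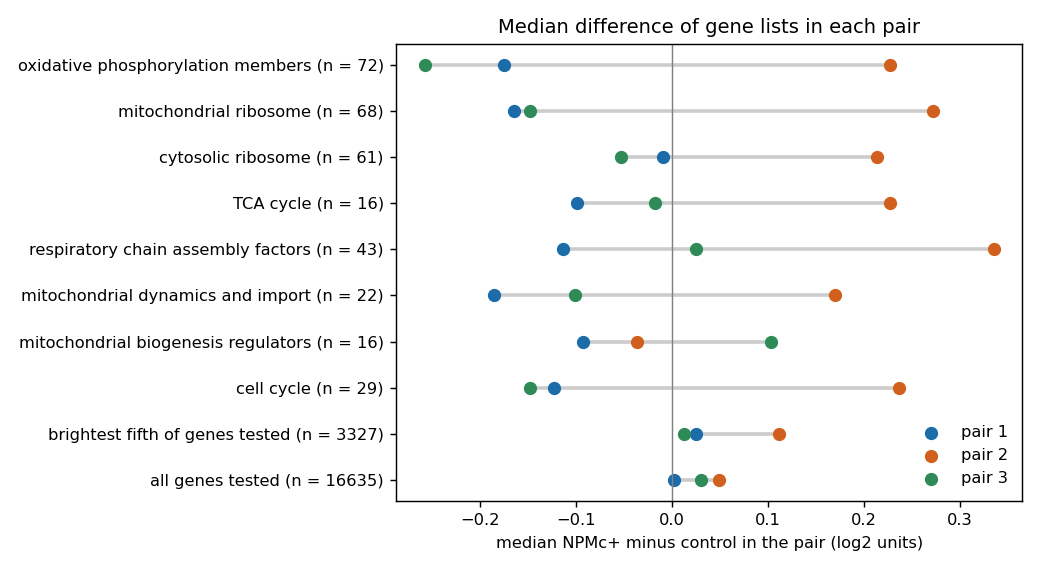
Median NPMc+ minus control difference (log2 units) of each gene list in pairs 1, 2 and 3 (coloured points; the grey line spans them), with the number of genes tested. The members reach from -0.26 in pair 3 to 0.23 in pair 2, while all genes tested stay between 0.00 and 0.05.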

How the data were processed

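The authors deposited log2 expression values of 41345 probe sets on 6 arrays, 3 control and 3 NPMc+. Per the submitters' processing notes they were made with RMA, which corrects background, normalizes arrays and summarises probes. Its version and any later step: not given in the sources used here. The labels' protocols name 5 ng of RNA as input. Groups and pair numbers come from the sample titles.

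Gene names came from the platform annotation: 23521 probe sets had 1 symbol, 1814 several and 16010 none. Each of 22180 genes was represented by its probe set with the highest mean, and genes below the 25th percentile of mean signal (3.01) were left out. The 16635 others were fitted with limma 3.58.1 in R 4.3.3 (with data.table, version 1.17.8), with the pair as a block, because same-numbered arrays share a mean in all probe sets; p-values are two-sided and Benjamini-Hochberg adjusted over all genes. The fit has 2 residual degrees of freedom. Because limma draws each gene's variance towards that of all genes, it adds 4.54 prior degrees of freedom. After the fit, the same model was run on simulated data whose spread was taken from it. There limma with the pair as a block called 5.09% of unchanged genes at an unadjusted p under 0.05. Gene lists were described by counts and medians, with no set test.

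Values on every array are given for the members of each complex with the highest difference, the lowest difference, the smallest p and the highest signal; other members were named after their values were seen. The members, lists and design were chosen with earlier results of these data known. Summaries and plots used Python 3.11.15 with numpy 2.4.6, pandas 2.3.3 and matplotlib 3.10.9. The number of arrays limits the precision, and no background signal was used.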

Additional observations from a re-analysis of the deposited data

How the results depend on the processing

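The paired limma fit called 0 of 72 members at an unadjusted p under 0.05 and 0 of 16635 genes past the adjusted threshold (1492 at an unadjusted p under 0.05). With no replicate block, limma called 6 members at that unadjusted p, all lower (Ndufb6, Ndufb8, Ndufs4, Ndufv2, Uqcrb and Atp5md). None of the 6 passed the adjusted threshold (limma adjusted p = 0.104 to 0.164), which 828 genes passed. That fit assumes 4 residual degrees of freedom although the pairing leaves 2. Here and below, members are counted at the unadjusted p and genes after adjustment, so these counts cannot be compared. The share of all genes at the unadjusted p is not given for these other fits. Quantile normalization gave 2 members (Ndufb6 and Ndufs4) and turned Ndufa4 to 0.021 log2 units; an intensity trend gave 1 (Ndufs4). Leaving out each pair gave 0 to 2 members (Atp5d without pair 1, Cox6a2 and Ndufs4 without pair 2, 0 without pair 3) and 0 to 24 genes after adjustment (0 without pair 1, 3 without pair 2, 24 without pair 3). In those fits Ndufs8 ranged from -0.41 to 0.70, Cox6b2 from -0.40 to 0.73, Atp5d from -0.021 to 1.34, Sdha from -0.014 to 0.30, Uqcrh from -0.027 to 0.14, Cox6a1 from -0.34 to 0.10 and Ndufa4 from -0.11 to 0.15. Without a change of sign, Ndufs4 ranged from -0.60 to -0.25, Cox6a2 from -1.12 to -0.12, Atp5c1 from -0.45 to -0.12, Atp5l from -0.27 to -0.06, Sdhd from -0.26 to -0.06 and Uqcrb from -0.35 to -0.16. The median of all members ranged from -0.19 to 0.04. Those of the complexes ranged from -0.25 to 0.04 (I), -0.07 to 0.12 (II), -0.22 to 0.07 (III), -0.19 to 0.04 (IV) and -0.07 to 0.07 (V), so each turned sign. Leaving out 1 of 3 pairs cannot shift a mean by as much as the SD between pairs, so the size of these shifts does not show stability. After quantile normalization the medians of complexes I to V were -0.12, -0.10, -0.14, -0.08 and -0.03, with no change of sign. The count of members highest in pair 2, with alternatives chosen after seeing the data, was 50 after quantile normalization, 52 of 68 without tissue isoforms, 54 of 69 with a filter at the 50th percentile, and 55 with centred pairs, averaged probe sets or no filter. The cause of these changes was not tested.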
